A study of Mus musculus with 5 samples.

Results

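DARPP-32 and 9 other genes that encode protein phosphatase regulators or subunits of the striatum were compared between R6/1 and wild-type (WT) mice. The genes, chosen by name with earlier results of these data known, were Ppp1r1b, Ppp1r1a, Arpp19, Arpp21, Ppp1r9b, Ppp1r9a, Ppp1r16b, Ptpn5, Ppp3ca and Ppp3r1. These 10 genes were found among the 26369 genes of the deposited count table, and all 10 had enough reads to be tested. RNA-seq libraries had been made from total RNA of the striatum after removal of ribosomal RNA. There were 3 libraries from WT mice and 2 from R6/1 mice, all on a mixed CBA and C57BL/6 strain background. R6/1 mice are a transgenic model of Huntington's disease that carries exon 1 of the HD gene, here labelled with a CAG expansion of 115. The promoter of the transgene and the age, sex and litter of the mice are not among the labels. The labels do not state whether each library is a different mouse, so the p-values below measure the spread between these libraries.

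DARPP-32, the product of Ppp1r1b, is highly abundant in medium spiny neurons, the projection neurons that make up most of the striatum. Dopamine acting through D1 receptors raises cAMP, and protein kinase A then phosphorylates DARPP-32, which turns it into an inhibitor of protein phosphatase 1 (PP1). Calcineurin, a calcium-dependent phosphatase, reverses that step, so the protein joins dopamine and glutamate signals. The ARPP proteins were named as other substrates of cAMP-dependent phosphorylation in such neurons, and STEP, the product of Ptpn5, is a striatum-enriched tyrosine phosphatase that acts on MAP kinases, Src-family kinases and glutamate receptor subunits.

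The coding sequence around the regulatory residue is shown for 3 pairs of related genes, because these residues define how the proteins act on their phosphatases and because the members of a pair can be followed separately in the counts. Each stretch runs 5′ to 3′ on the coding strand, was taken from the GENCODE M21 transcripts on GRCm38, and spans an exon junction. Capitals mark the codon of the phosphorylated threonine (Ppp1r1b, Ppp1r1a) or serine (Arpp19, Ensa), or the codons of the PP1 docking motif (Ppp1r9b, Ppp1r9a).
Ppp1r1b: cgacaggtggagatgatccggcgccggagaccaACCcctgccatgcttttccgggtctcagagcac
Ppp1r1a: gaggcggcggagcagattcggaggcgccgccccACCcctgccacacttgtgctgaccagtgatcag
Arpp19: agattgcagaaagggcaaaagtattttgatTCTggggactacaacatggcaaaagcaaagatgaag
Ensa: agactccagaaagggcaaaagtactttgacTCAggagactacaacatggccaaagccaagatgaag
Ppp1r9b: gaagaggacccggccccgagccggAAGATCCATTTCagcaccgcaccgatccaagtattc
Ppp1r9a: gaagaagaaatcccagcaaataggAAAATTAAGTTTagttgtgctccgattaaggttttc
The marked codons are number 34 of 194 in Ppp1r1b (chr11:98349160-98350619, plus strand) and number 35 of 171 in Ppp1r1a (chr15:103534360-103537809, minus strand). They are number 62 of 112 in Arpp19 (chr9:75052341-75056685, plus strand) and number 67 of 117 in Ensa (chr3:95626860-95628591, plus strand). The docking motif starts at codon 448 of 817 in Ppp1r9b (chr11:94992865-94996540, plus strand) and at codon 457 of 1095 in Ppp1r9a (chr6:4906791-5045941, plus strand). Over these windows Ppp1r1b and Ppp1r1a shared 39 of 66 bases, Arpp19 and Ensa shared 58 of 66, and Ppp1r9b and Ppp1r9a shared 34 of 60. A coding transcript of each member was searched against all transcripts, and the members' other transcripts were not used as queries. None of the searched transcripts matched another member or its relative at 90% identity or more over at least 250 bases. The only other gene matched at that level was Wdr92, by Ppp3r1 (100% over 462 bases), described below.

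All 10 genes were lower in R6/1 than in WT, and in each of them both R6/1 libraries lay below all 3 WT libraries. Their log2 fold changes ran from -2.22 for Arpp19 to -0.71 for Ppp3r1, with a median of -1.31, which is a 2.48-fold decrease. The median over all 17202 genes tested was -0.01. Testing used edgeR's quasi-likelihood test, with Benjamini-Hochberg adjustment over all genes tested and a threshold of 0.05. All 10 passed as lower, against 12.8% of all genes tested, and none passed as higher, against 9.72%. Since the 10 genes were chosen with earlier results of these data known, the shares given here are descriptive and not a test of the set. Both R6/1 libraries lay below every WT library for 26.9% of all genes. At least a 2-fold decrease together with a passed test was found for 8 of the 10 genes and for 4.51% of all genes. The genes are well above the low end of the table, so they were also read against the 5561 genes at or above the level of the lowest of them, of which 18.8% passed as lower. Among all tested genes ordered from the most decreased, they stood between rank 227 (Arpp19) and rank 1951 (Ppp3r1).

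**Figure D1:**
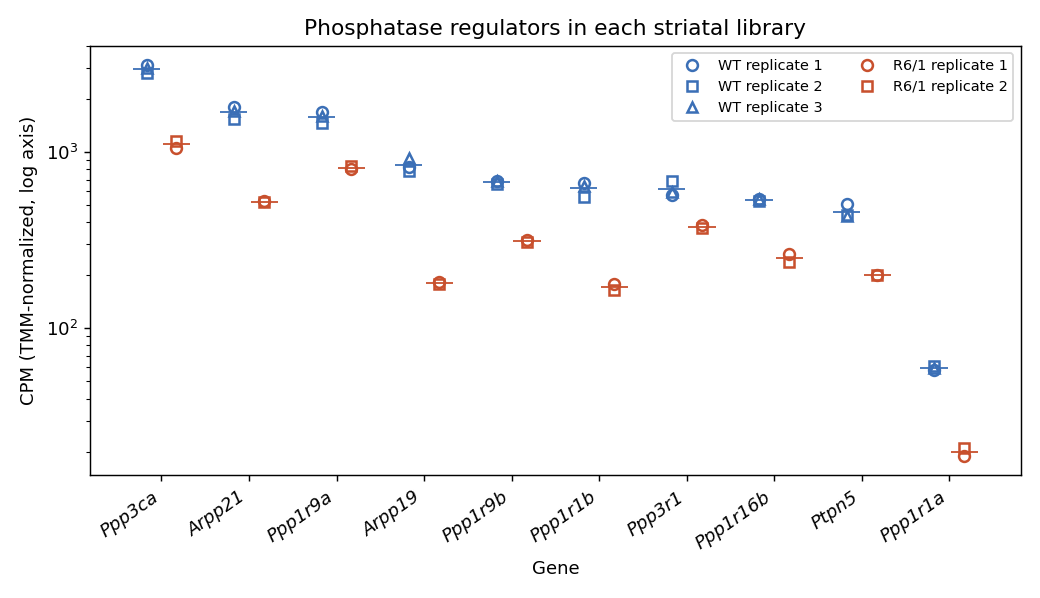
Level of each of the 10 genes in each library, in CPM with TMM normalization on a log axis. Blue symbols are the 3 WT libraries, red symbols the 2 R6/1 libraries, and horizontal lines the group means. In every gene both R6/1 libraries lie under the lowest WT library, with the widest separation in Arpp19 and the narrowest in Ppp3r1.

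The first group holds the PP1 inhibitors. Ppp1r1b (DARPP-32) had 673, 561 and 645 CPM in the WT libraries and 179 and 165 CPM in R6/1, where CPM are counts scaled to a common library size. WT replicate 2 was the lowest of the WT libraries, and it was still 3.14 times the higher R6/1 library. The log2 fold change was -1.86 (SE 0.0987, 95% confidence interval -2.10 to -1.63, adjusted p = 0.000106, lower in 2 of 2 R6/1 libraries), and the R6/1 mean was 27.5% of the WT mean. Ppp1r1a encodes inhibitor-1, the relative of DARPP-32 that protein kinase A switches on at the equivalent threonine shown above. It stood at 58.1, 61.4 and 59.7 CPM in WT and at 18.9 and 20.9 CPM in R6/1. The WT libraries were close together, and the R6/1 mean was 33.3% of theirs (log2 fold change -1.59, SE 0.0874, interval -1.79 to -1.38, adjusted p = 0.000121). The third gene of this family, Ppp1r1c, was at or below 0.127 CPM in every library and was not tested.

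The next group holds the proteins that place PP1 within the cell. Ppp1r9b encodes spinophilin, which binds actin and PP1 in dendritic spines. It stood at 687, 665 and 688 CPM in WT and at 318.8 and 307.7 CPM in R6/1. Each group was tight, and the log2 fold change was -1.12 (SE 0.0638, interval -1.27 to -0.97, adjusted p = 0.000121). Its relative Ppp1r9a encodes neurabin, which carries the same kind of docking motif. Neurabin transcripts stood at 1686, 1477 and 1610 CPM in WT and at 803 and 832 CPM in R6/1. The groups were apart by 1.77-fold at their nearest libraries, with a log2 fold change of -0.96 (SE 0.077, interval -1.14 to -0.78, adjusted p = 0.000427). Ppp1r16b encodes a membrane-associated targeting subunit of PP1, known as TIMAP from endothelial cells. It stood at 541, 531 and 541 CPM in WT and at 264 and 237 CPM in R6/1, with a log2 fold change of -1.10 (SE 0.0725, interval -1.27 to -0.93, adjusted p = 0.000206). Its relative Ppp1r16a did not pass the test (log2 fold change 0.06, interval -0.16 to 0.28), and its R6/1 libraries, at 40.3 and 41.2 CPM, lay within the WT range of 36 to 42.7 CPM.

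The catalytic subunits that these proteins bind were mixed. Ppp1ca stood at 346, 296 and 359 CPM in WT and at 160 and 182 CPM in R6/1, and fell (log2 fold change -0.97, interval -1.21 to -0.72, adjusted p = 0.00139). Ppp1cb stood at 416, 444 and 432 CPM in WT and at 380 CPM in each R6/1 library, with a log2 fold change of -0.18 that missed the threshold (interval -0.33 to -0.03, adjusted p = 0.082) and passed in DESeq2. Ppp1cc had a log2 fold change of -0.29 (interval -0.64 to 0.06, adjusted p = 0.198), its groups overlapped, and it passed only when WT replicate 2 was left out among the alternatives tried.

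ARPP-19 and ENSA are small inhibitors of the B55 form of protein phosphatase 2A (PP2A), which the kinase Greatwall (Mastl) switches on by phosphorylating the serine marked above, a step best known from cell division. Arpp19 had the largest decrease of the 10 genes. It stood at 821, 784 and 923 CPM in WT and at 183 and 178 CPM in R6/1, so the R6/1 mean was 21.4% of the WT mean (log2 fold change -2.22, SE 0.0914, interval -2.44 to -2.01, adjusted p = 8.47e-05). The lowest WT library was 4.28 times the higher R6/1 library. Ensa, whose coding sequence around the site is nearly the same, stood at 213, 233 and 239 CPM in WT and at 243 and 279 CPM in R6/1. Its R6/1 libraries were above all WT libraries, but the change did not pass (log2 fold change 0.19, interval -0.01 to 0.40, adjusted p = 0.151), although it passed as higher when libraries were scaled by their totals only. Mastl was near the low end of the table, at 2.51, 1.42 and 2.35 CPM in WT and 3.80 and 4.88 CPM in R6/1. It passed as higher (log2 fold change 1.04, adjusted p = 0.0344), but the call was lost without WT replicate 3, without either R6/1 library, without WT replicates 1 and 2 together, and with the choroid plexus covariate described below.

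Arpp21 encodes ARPP-21, also known as RCS, a phosphoprotein of medium spiny neurons that binds calmodulin when phosphorylated. The counts are per gene and do not tell the transcripts of Arpp21 apart. Arpp21 stood at 1806, 1538 and 1709 CPM in WT and at 528 and 523 CPM in R6/1. The R6/1 libraries differed by 1.01-fold and the WT libraries by 1.17-fold, and the R6/1 mean was 31.2% of the WT mean (log2 fold change -1.68, SE 0.0855, interval -1.88 to -1.48, adjusted p = 9.46e-05). An intron of Arpp21 holds the precursor of a brain microRNA on the same strand, Mir128-2, which gives the same mature miR-128-3p as Mir128-1 in the gene R3hdm1. The mature sequence is shown because both host genes were measured, with its seed (bases 2 to 8) in capitals, from RefSeq on GRCm38.p6.
miR-128-3p: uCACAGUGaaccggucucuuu
In the Mir128-2 copy it lies at chr9:112118644-112118664 on the minus strand. Few reads fell on the precursors: Mir128-2 had 31 counts over the 5 libraries and was not tested, and Mir128-1 had a log2 fold change of -0.78 that did not pass (adjusted p = 0.0981). Nothing can be read from these counts about the mature microRNA. R3hdm1, the host of the other copy and a relative of Arpp21, stood at 179, 230 and 177 CPM in WT and at 170 and 162 CPM in R6/1, and did not pass (log2 fold change -0.24, interval -0.52 to 0.05, adjusted p = 0.2).

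Calcineurin is made of a catalytic A subunit and a regulatory B subunit that binds calcium. Ppp3ca encodes the main A subunit of brain. It stood at 3115, 2821 and 3028 CPM in WT and at 1059 and 1161 CPM in R6/1, with a log2 fold change of -1.43 (SE 0.0766, interval -1.61 to -1.25, adjusted p = 0.000109). By CPM it was the gene with rank 9 of all genes in WT and rank 42 in R6/1. Ppp3r1 encodes the B subunit and had the smallest decrease of the 10 genes. It stood at 570, 691 and 593 CPM in WT and at 386 and 372 CPM in R6/1 (log2 fold change -0.71, SE 0.0947, interval -0.93 to -0.48, adjusted p = 0.00326). The nearest WT and R6/1 libraries differed by 1.48-fold. The intervals of Ppp3ca and Ppp3r1 did not overlap. In GENCODE M21, 14.3% of the exon bases of Ppp3r1 are shared with Wdr92 on the same strand. Reads there cannot be assigned to either gene if the annotation used for counting, on mm9, held the same overlap. That was not checked.

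The alternative A subunits did not pass. Ppp3cb stood at 216, 263 and 250 CPM in WT and at 227 and 220 CPM in R6/1 (log2 fold change -0.12, interval -0.34 to 0.10, adjusted p = 0.391). Ppp3cc, at 19.6 ± 0.707 CPM in WT (SD, n = 3) and 21.2 ± 1.79 CPM in R6/1 (SD, n = 2), had a log2 fold change of 0.11 (interval -0.12 to 0.35, adjusted p = 0.451). The groups overlapped for both. The calcineurin inhibitors Rcan1 and Rcan2 had log2 fold changes of -0.42 (adjusted p = 0.0116) and -0.29 (adjusted p = 0.0319). The Rcan1 call was lost without either R6/1 library, and the Rcan2 call without WT replicate 1, without WT replicate 3, without either R6/1 library, and with scaling by library totals only.

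Ptpn5 (STEP) stood at 506, 440 and 437 CPM in WT and at 202 and 201 CPM in R6/1. WT replicate 1 was the highest library, and the R6/1 libraries nearly coincided. The log2 fold change was -1.20 (SE 0.0859, interval -1.40 to -0.99, adjusted p = 0.000293). The related tyrosine phosphatases, which also dock on MAP kinases, did not share one direction. Ptprr, at 21.4 to 25.6 CPM in WT and 24 and 22.7 CPM in R6/1, did not pass (log2 fold change 0.03, interval -0.23 to 0.29), and its sign was not stable, since it was negative in 5 of the alternatives. Ptpn7 stood at 16.8, 13.1 and 16.4 CPM in WT and at 1.08 and 1.88 CPM in R6/1, a 10.5-fold decrease (log2 fold change -3.39, SE 0.268, interval -4.02 to -2.76, adjusted p = 0.000402). Mapk3, a MAP kinase that STEP acts on, did not pass (log2 fold change -0.06, interval -0.25 to 0.12) and turned to 0.05 with scaling by library totals only.

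**Figure D2:**
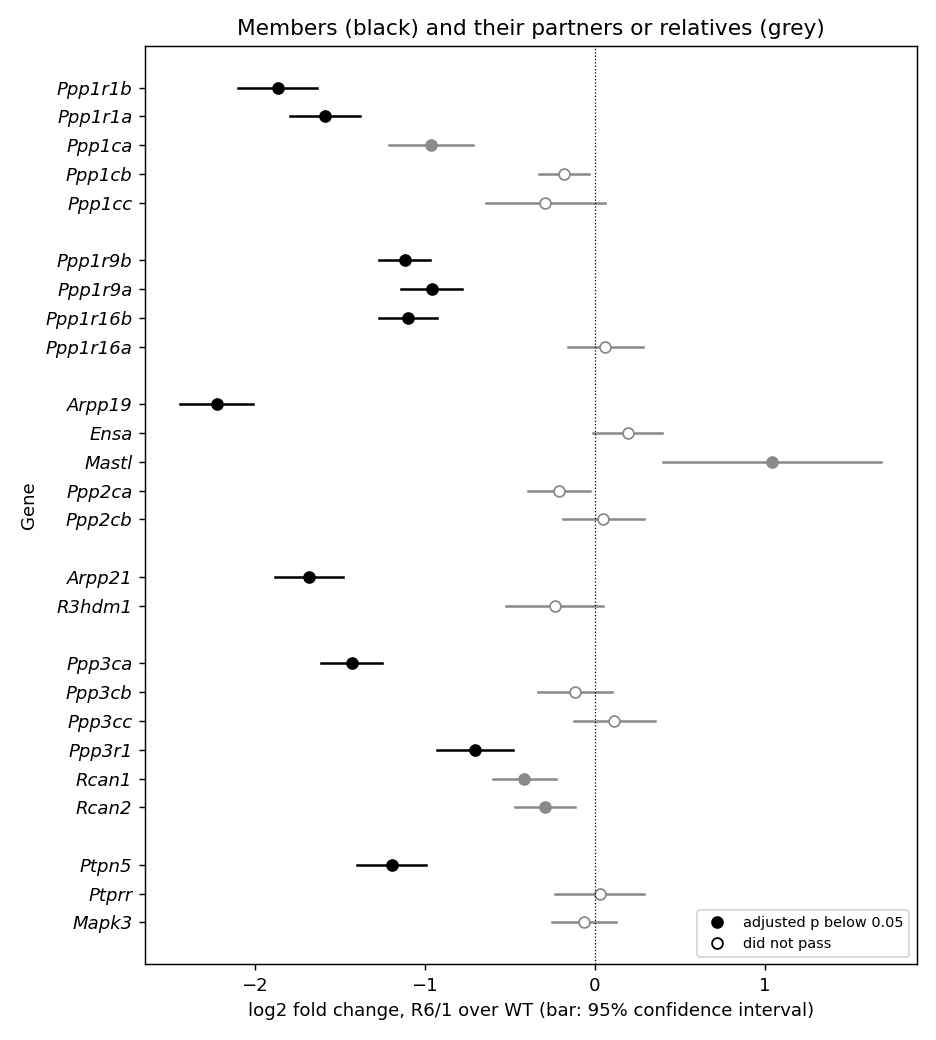
Log2 fold change of R6/1 over WT for the 10 genes (black) and for partners or relatives named in the text (grey), with 95% confidence intervals as bars. Filled points passed edgeR's test and open points did not. The intervals of Arpp19 (-2.44 to -2.01) and Ensa (-0.01 to 0.40) do not overlap, and neither do those of Ppp3ca (-1.61 to -1.25) and Ppp3cb (-0.34 to 0.10).

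Ratios of raw counts within a library do not depend on how libraries are scaled, and 7 such pairs were examined. With 3 libraries against 2, an exact two-sided permutation test cannot give a p under 0.2, so the ratios are given as values. Ppp3ca over Ppp3r1 was 5.46, 4.08 and 5.11 in WT and 2.74 and 3.12 in R6/1, a 1.66-fold decrease. Ppp3ca over Ppp3cb was 14.4, 10.7 and 12.1 in WT and 4.66 and 5.26 in R6/1, a 2.49-fold decrease. In both calcineurin ratios the 2 groups were apart.

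Arpp19 over Ensa was 3.86, 3.36 and 3.86 in WT and 0.752 and 0.637 in R6/1, a 5.32-fold decrease, so Arpp19 had more counts than Ensa in every WT library and fewer in both R6/1 libraries. Arpp21 over R3hdm1 was 10.1, 6.70 and 9.66 in WT and 3.11 and 3.23 in R6/1. Ppp1r1b over Ppp1ca was 1.95, 1.90 and 1.8 in WT and 1.12 and 0.909 in R6/1, so the inhibitor was reduced further than that catalytic subunit. For these 3 pairs the groups did not overlap.

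Among related members the ratios moved less. Ppp1r1b over Ppp1r1a was 11.6, 9.15 and 10.8 in WT and 9.45 and 7.91 in R6/1, and the groups overlapped (exact permutation p = 0.4, adjusted over the 7 ratios 0.4). Ppp1r9b over Ppp1r9a was 0.408, 0.451 and 0.427 in WT and 0.397 and 0.370 in R6/1, a 1.12-fold decrease with groups that were apart. The other 6 ratios, the last one included, had the smallest p the test can give, 0.2 (adjusted over the 7 ratios 0.233).

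**Figure D3:**
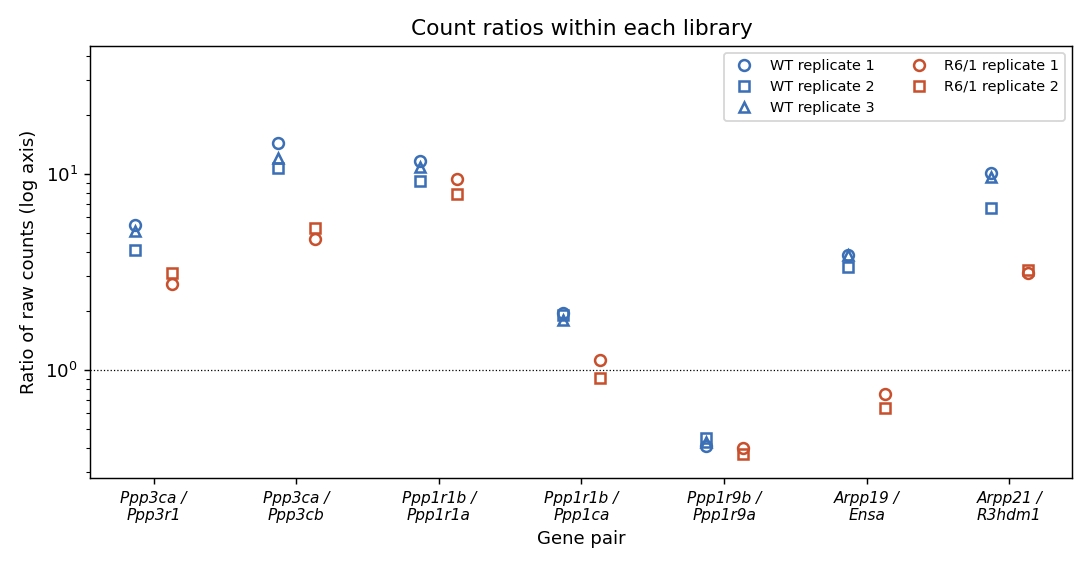
Ratio of the raw counts of 2 genes in the same library, on a log axis, for 7 pairs. Blue symbols are WT and red symbols R6/1 libraries, and the dotted line marks equal counts. Arpp19 over Ensa crosses that line in both R6/1 libraries, from 3.36 or more in WT to 0.752 or less in R6/1, while the groups overlap for Ppp1r1b over Ppp1r1a.

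As a share of all counts, the 10 genes together took 1.01%, 0.926% and 0.988% in WT and 0.413% and 0.42% in R6/1. Their summed level was 10088 ± 465 CPM in WT (SD, n = 3) and 3970 ± 39.0 CPM in R6/1 (SD, n = 2), a 2.54-fold difference. Ppp3ca held the largest share of the sum in each library. The WT libraries did not differ the same way for every gene: WT replicate 2 was the lowest WT library for 7 of the 10 genes and the highest for 2, Ppp1r1a and Ppp3r1. In that library the summed level of 10 cortical projection neuron markers was also the highest, at 376 CPM against 111 and 257 CPM in the other WT libraries. The part of these transcripts in the members' values was not tested.

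Levels can be set against each other only per length, and the order depended on the length used. With the merged exons of GENCODE M21, the order in WT by CPM per kb was Ppp3ca (299), Ppp1r1b (214), Ppp3r1 (191), Arpp19 (170), Ppp1r9b (134), Ppp1r9a (109), Arpp21 (96.7), Ptpn5 (79.6), Ppp1r16b (60.8) and Ppp1r1a (45.7). The neighbours Ppp1r1b and Ppp3r1, Ppp3r1 and Arpp19, and Ppp1r9a and Arpp21 overlapped between WT libraries. In R6/1 the order by CPM per kb began with Ppp3r1 (117), Ppp3ca (111), Ppp1r9b (61.6) and Ppp1r1b (58.7), followed by Ppp1r9a (56.3). Ppp3r1 and Ppp3ca overlapped between R6/1 libraries, and so did Ppp1r9b and Ppp1r1b, and Ppp1r1b and Ppp1r9a. Arpp19 moved from place 4 in WT to place 6 in R6/1, and Ppp3r1 from place 3 to place 1.

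The authors' deposited signal per kb rests on shorter lengths, from 0.765 kb for Ptpn5 to 6.38 kb for Ppp1r16b. For Ppp3ca the GENCODE length was 8.62 times theirs, and for Ppp1r1a it was 1.01 times theirs. In the authors' deposited signal per kb Ppp3ca was first in both groups, Ppp1r1b was in place 5 in WT and place 7 in R6/1, and Ptpn5 went from place 4 to place 2. Fold changes between groups do not depend on this choice. In the authors' deposited table of fold changes the log2 values of the 10 genes ran from -2.18 for Arpp19 to -0.68 for Ppp3r1.

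The pattern of Ppp1r1b across the 5 libraries was set against that of 10720 other genes with a mean of at least 3 on the log2 CPM scale. The measure was the root mean square distance between centred log2 CPM values. The nearest were Adcy5 (0.04), the adenylyl cyclase of medium spiny neurons; Htr2a (0.04), a serotonin receptor; Hbegf (0.07), a growth factor; Rgs9 (0.08), a regulator of G protein signalling enriched in the striatum; and Pcp4 (0.08), a calmodulin-binding peptide. Adcy5 stood at 1392, 1179 and 1339 CPM in WT and at 367 and 365 CPM in R6/1, and was, like Ppp1r1b, lowest in WT replicate 2 among the WT libraries. Of the other 9 genes, Arpp21 was nearest to Ppp1r1b (0.10), followed by Ppp1r1a and Arpp19 (0.19 each), and Ppp3r1 was farthest (0.60). These distances rest on 5 libraries in 2 groups, and genes with a like difference between the groups lie near each other by construction.

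The tissue label was checked with marker genes. All 17 medium spiny neuron markers tested were present and lower in R6/1, their median log2 fold change was -1.81, and their summed level was 11383, 9997 and 11070 CPM in WT and 3485 and 3615 CPM in R6/1. Drd1a, the D1 dopamine receptor upstream of DARPP-32, had a log2 fold change of -1.84, and Drd2, the D2 receptor that opposes it, of -1.63. Penk, the enkephalin precursor, was at -2.53 and Gnal, a G protein subunit that couples D1 receptors to cAMP, at -0.39. In bulk tissue, fewer cells of a type and less RNA per cell cannot be told apart, and this holds for each of the 10 genes.

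Library depth was 19630036 to 23046266 counts in WT and 29871306 to 34379064 in R6/1, so every R6/1 library was deeper, and each of the 10 genes had between 655 and 69542 counts in every library. Markers of other cells gave the following values. Astrocyte markers summed to 4815 to 4982 CPM in WT and 3378 to 3461 CPM in R6/1 (4 lower and 1 higher of 10). Their median log2 fold change was -0.38, and Gfap, the highest of them, was at 0.71. Oligodendrocyte markers summed to 5029 to 6968 CPM in WT and 4897 to 5084 CPM in R6/1 (4 lower and 2 higher of 12). Interneuron markers summed to 187 to 228 CPM in WT and 115 to 133 CPM in R6/1 (4 of 9 lower). Among them the cholinergic markers, chosen for naming after their values were seen, fell about as far as the medium spiny neuron markers. Slc5a7, the choline transporter, stood at 47.5, 46.9 and 53.1 CPM in WT and at 12.8 and 15.5 CPM in R6/1 (log2 fold change -1.80, SE 0.117, adjusted p = 0.000198), and Chat, which makes acetylcholine, at 19.5, 17.6 and 20.1 CPM and at 5.10 and 7.94 CPM (-1.55, SE 0.201, adjusted p = 0.00283). Of the oligodendrocyte lineage, the transcription factor Sox10, likewise named after its values were seen, rose from 5.51, 8.90 and 6.23 CPM in WT to 19.4 and 20.1 CPM in R6/1 (1.53, SE 0.201, adjusted p = 0.00303). That was the largest value of the oligodendrocyte list, whose median was 0.13, with more members called lower than higher. Microglial markers (365 to 428 CPM in WT, 363 to 408 CPM in R6/1) had no call of 11, and endothelial markers (419 to 439 and 406 to 424 CPM) had 1 of 11. Cortical markers summed to 111, 376 and 257 CPM in WT and 171 and 93.5 CPM in R6/1, so the groups overlapped. They had no call of 10, but their median log2 fold change was -0.97, with values from -1.44 to 0.25. Slc17a7 was between 18.4 and 136 CPM. At an unadjusted p under 0.05 in edgeR there were 0 microglial and 1 cortical marker, and DESeq2 and limma-voom called 0 of either list. Immediate early genes summed to 194 to 261 CPM in WT and 115 to 131 CPM in R6/1 (5 of 11 lower). No marker of these lists was at 0 in every library, and the part of these cells in the members' values was not tested.

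Choroid plexus markers set WT replicates 1 and 2 apart: the 12 genes summed to 5670 and 5623 CPM there, against 427 CPM in WT replicate 3 and 466 and 338 CPM in R6/1, and 6 of 12 passed as lower. Ttr, the leading one, stood at 3466, 3341 and 69.4 CPM in WT and at 90.5 and 21.1 CPM in R6/1. With WT replicates 1 and 2 both left out, which leaves WT replicate 3 alone and assumes that it varies like the R6/1 libraries, the members' log2 fold changes were -1.91 for Ppp1r1b, -2.35 for Arpp19, -1.70 for Arpp21, -1.45 for Ppp3ca, -1.12 for Ptpn5 and -0.64 for Ppp3r1. With the mean log2 CPM of these 12 markers as a covariate they were -1.90, -2.35, -1.71, -1.47, -1.12 and -0.63. Because these markers were high in WT replicates 1 and 2 only, the covariate fit also rests largely on WT replicate 3 against R6/1. The 2 fits are therefore nearly the same comparison and not separate checks. All 10 calls held in the covariate fit.

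**Figure D4:**
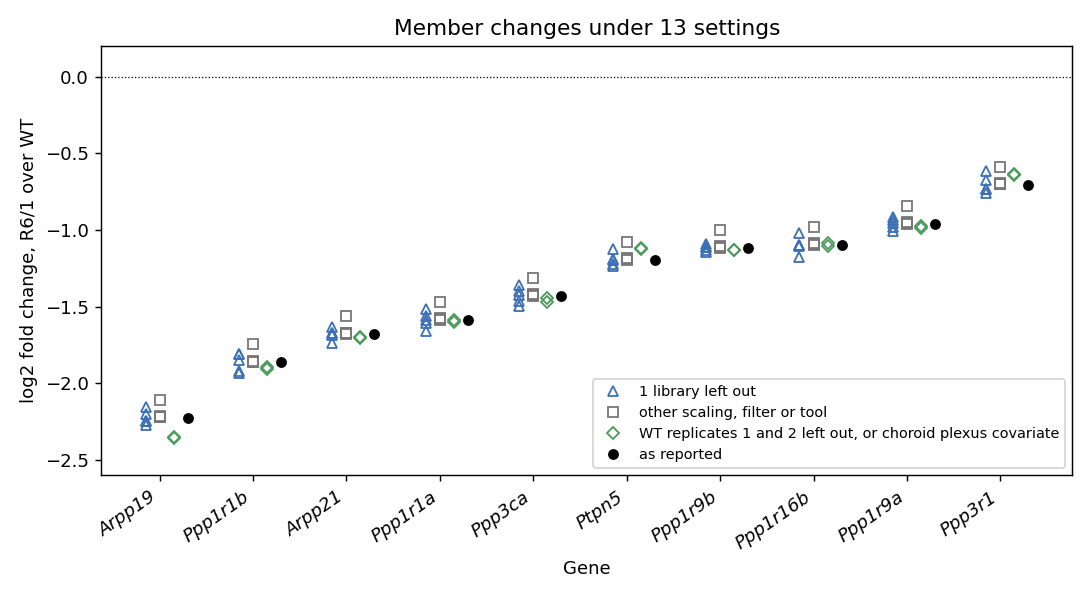
Log2 fold change of R6/1 over WT for each of the 10 genes as reported (black) and under 12 alternatives, with blue triangles for fits without 1 library, grey squares for another scaling, filter or tool, and green diamonds for the fits that address the choroid plexus. Every value lies below 0, from -2.35 for Arpp19 to -0.59 for Ppp3r1.

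The rest of the phosphatase network gives the setting for these genes. Of 147 other phosphatase, kinase and substrate genes tested in 6 lists, 36 fell (24.5%) and 20 rose (13.6%), against 12.8% and 9.72% of all genes tested. Of the genes at or above the level of the lowest of the 10, 18.8% fell. The median log2 fold change of the 147 genes was -0.02. A decrease of at least 2-fold with a passed test was found for 5 of the 147, Phactr1, Ppp2r2a, Strn, Ptpn7 and Ppp4r4, against 4.51% of all genes. These lists are wider than the 10 genes and were not drawn at random, so they are given as counts only.

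Of 35 other PP1 subunits and regulators, 8 fell and 3 rose, the other 24 did not pass, and the median was -0.05. Phactr1, which binds PP1 and actin, fell from 947 ± 47.2 CPM (SD, n = 3) to 416 ± 22.5 CPM (SD, n = 2), a log2 change of -1.19 (adjusted p = 0.000182). Ppp1ca, described above, fell as well, and so did Ppp1r2, which encodes inhibitor-2 (log2 fold change -0.84, adjusted p = 0.0124). The genes that rose were Ppp1r26 (0.94, adjusted p = 0.00875), Ppp1r3f (0.70, adjusted p = 0.00523), a glycogen-targeting subunit, and Ppp1r10 (0.37, adjusted p = 0.0271), a nuclear targeting subunit. Without R6/1 replicate 1 or 2 only 3 or 4 passed as lower and 1 or 0 as higher, and with the choroid plexus covariate 4 and 0. Ppp1r2 and Ppp1r26 lost their calls without either R6/1 library and with that covariate, Ppp1r3f without R6/1 replicate 2 and with the covariate, and Ppp1r10 in 6 of 12 alternatives.

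Of 24 genes for PP2A subunits, ENSA and Greatwall, 6 fell and 4 rose, with a median of 0.05. Strn encodes striatin, a regulatory subunit rich in striatal dendrites, and fell from 797 ± 69.0 CPM (SD, n = 3) to 319.3 ± 9.57 CPM (SD, n = 2), a log2 change of -1.32 (adjusted p = 0.000232). Ppp2r2a and Ppp2r2c encode B55 subunits, the form that ARPP-19 inhibits, and had log2 fold changes of -1.18 (adjusted p = 0.000182) and -0.48 (adjusted p = 0.00801). Mastl, Ppp2r1b (0.79, adjusted p = 0.00842), a scaffold subunit, and Anp32a (0.43, adjusted p = 0.00714), a PP2A inhibitor, were higher. The catalytic subunits Ppp2ca (-0.21, interval -0.39 to -0.03, adjusted p = 0.0962) and Ppp2cb (0.05, interval -0.19 to 0.29, adjusted p = 0.75) did not pass. Without R6/1 replicate 1 or 2 the lower calls were 2 and 2 and the higher calls 0 and 1, and without WT replicate 3 they were 3 and 2. The calls of Ppp2r2c and Ppp2r1b were lost without either R6/1 library, and that of Anp32a without R6/1 replicate 1. With the choroid plexus covariate 3 fell and 1 rose, and Ppp2r2c and Anp32a did not pass.

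Of 17 calcineurin partners, 7 fell and 3 rose, with a median of -0.12. Akap5, which anchors calcineurin and protein kinase A at synapses, fell from 535 ± 34.7 CPM (SD, n = 3) to 275 ± 27.2 CPM (SD, n = 2), a log2 change of -0.96 (adjusted p = 0.000836). Calm2, a calmodulin gene, fell (-0.43, adjusted p = 0.0088). Nfatc3 (0.69, adjusted p = 0.00309), a transcription factor that calcineurin activates, and Rcan3 (0.41, adjusted p = 0.0174) rose, as did Ppp3r2 (1.10, adjusted p = 0.0376), a B subunit known from testis that stood at only 0.6 CPM in WT and 1.29 CPM in R6/1. Without R6/1 replicate 1 or 2 the lower calls were 2 and 3, and without R6/1 replicate 2 the higher calls were 1. The Calm2 call was lost without R6/1 replicate 1, the Rcan3 call without R6/1 replicate 2, without WT replicates 1 and 2 together and with the choroid plexus covariate, and the Ppp3r2 call in 7 of 12 alternatives.

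Of 20 genes for kinases that act on DARPP-32, or for the subunits, activators or inhibitors of such kinases, 4 fell and 4 rose, with a median of 0.06. Prkg2 (-0.83, adjusted p = 0.0222), a cGMP-dependent kinase, Cdk5r2 (-0.58, adjusted p = 0.00782), an activator of CDK5, and Prkar2b (-0.45, adjusted p = 0.00611), a regulatory subunit of protein kinase A, fell. Prkar2a (0.99, adjusted p = 0.00805), the other type II regulatory subunit, rose, with the casein kinase genes Csnk2b (0.43, adjusted p = 0.0489) and Csnk1d (0.33, adjusted p = 0.0142). The catalytic subunits of protein kinase A, which phosphorylate the threonine of DARPP-32 shown above, stood at 70.0 to 82.0 CPM in WT and 93.1 and 90.1 CPM in R6/1 for Prkaca, and at 676 to 752 CPM and 823 and 838 CPM for Prkacb. Both were above all WT libraries but did not pass (adjusted p = 0.0558 and 0.0677), and both passed in DESeq2. Cdk5, which phosphorylates another threonine of DARPP-32, did not pass (-0.25, adjusted p = 0.0802) except without WT replicate 2.

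The kinase calls depended on single libraries, and so did the calls over all genes. Over all genes, 2210 lower and 1672 higher calls became 872 and 280 without R6/1 replicate 1, and 776 and 312 without R6/1 replicate 2. The losses below are therefore not particular to the kinase list. Without R6/1 replicate 1 there were 2 lower and 0 higher calls, without R6/1 replicate 2 there were 0 and 0, and without WT replicate 3 there were 2 and 2. With the choroid plexus covariate there was 1 in each direction. Of the 6 kinase genes named as called, Prkg2, Csnk2b, Csnk1d and Prkar2a lost the call without either R6/1 library, and Cdk5r2 and Prkar2b without R6/1 replicate 2. Csnk2b also lost it without WT replicate 1 and without WT replicate 3, and Prkg2 without WT replicate 3. With the covariate Prkg2, Cdk5r2, Csnk2b and Csnk1d did not pass, and Csnk1d did not pass without WT replicates 1 and 2 together.

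Of 23 genes for STEP substrates and related tyrosine phosphatases, 6 fell and 1 rose, with a median of -0.08. After Ptpn7 the largest decreases among those called were in Ptk2b (-0.62, adjusted p = 0.00128), the kinase Pyk2, and in Grin2b (-0.58, adjusted p = 0.00208), an NMDA receptor subunit, both substrates of STEP. Ptpn9 rose (0.52, adjusted p = 0.0116), a call lost without either R6/1 library and with the choroid plexus covariate. Without R6/1 replicate 2 there were 3 lower calls. Higher calls numbered 0 without either R6/1 library and 3 without WT replicate 2.

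Of 28 other serine/threonine phosphatase genes, 5 fell and 5 rose, with a median of 0.04. Ppp4r4, a regulatory subunit of protein phosphatase 4, fell from 170 ± 16.9 CPM (SD, n = 3) to 68.6 ± 9.69 CPM (SD, n = 2), a log2 change of -1.31 (adjusted p = 0.000792). Ppm1f (-0.60, adjusted p = 0.0039) and Pptc7 (-0.53, adjusted p = 0.00482) fell, and Ppm1g (0.58, adjusted p = 0.00838), Phlpp2 (0.50, adjusted p = 0.00488) and Ppp5c (0.40, adjusted p = 0.0269) rose. Without R6/1 replicate 1 or 2 the lower calls were 2 and 3 and the higher calls 1 and 1, and without WT replicate 1 or 3 the higher calls were 3 each. Pptc7 and Ppm1g lost the call without R6/1 replicate 1, Phlpp2 without R6/1 replicate 2, and Ppp5c without any one of WT replicate 1, WT replicate 3 and the R6/1 libraries, and with the choroid plexus covariate.

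**Figure D5:**
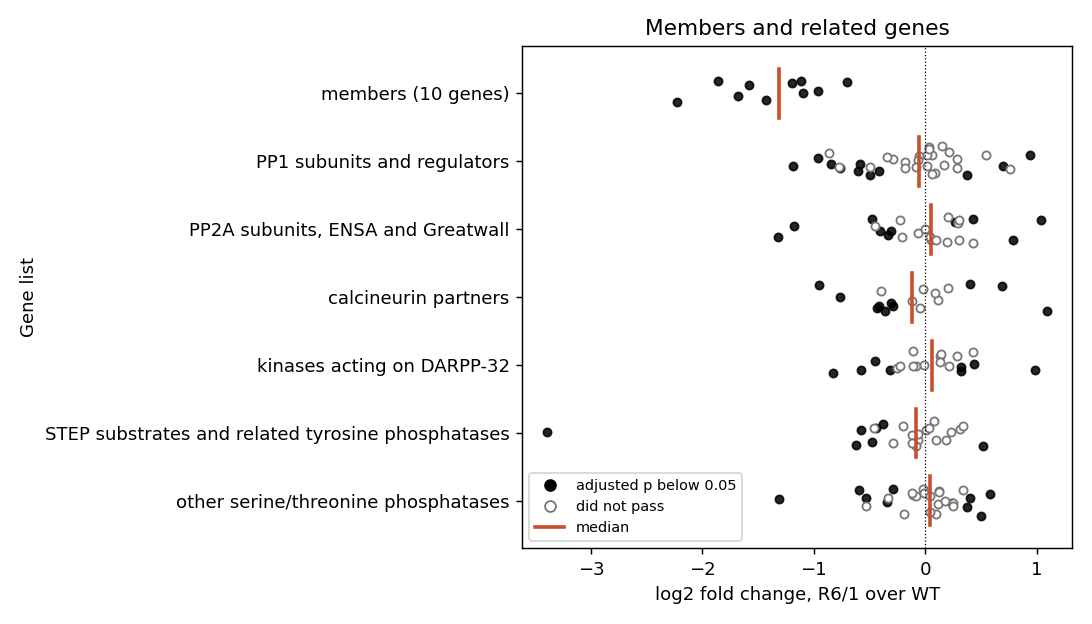
Log2 fold change of R6/1 over WT for the 10 genes and for each tested gene of 6 lists of related genes. Filled points passed edgeR's test, open points did not, vertical bars mark the medians, and vertical scatter within a list only separates the points. The median of the 10 genes is -1.31, and those of the 6 lists lie between -0.12 and 0.06.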

How the data were processed

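The deposited table gives raw read counts per gene for each library, together with the authors' normalized signal, that signal per kb, and the authors' own test (log2 fold change with its p-value, raw and adjusted). Per the submitters' processing notes, the tools were DESeq2 1.0.19, HTSeq 0.5.4p3, TopHat 1.4.1 and CASAVA 1.8.2, with mm9 as the build; per the labels' protocols, the kit was strand-specific, and the strand setting of the counting was not given in the sources used here. Reads from a gene and an antisense partner may therefore be mixed: 15.7% of the exon bases of Ppp1r1b overlap 1700003D09Rik (29 counts in all) and 3.33% of those of Arpp21 overlap 2900079G21Rik (209 counts), by GENCODE M21.

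Counts were tested with edgeR 4.0.16 in R 4.3.3 (TMM, filterByExpr with a minimum count of 10 and total of 15, quasi-likelihood F test, Benjamini-Hochberg over 17202 genes, threshold 0.05), with limma 3.58.1 and DESeq2 1.42.0 as alternatives. CPM are counts scaled by the TMM-adjusted library size. Standard errors and intervals come from the F statistic. The fit was also run on counts simulated with the dispersions estimated from these same libraries. That run holds no choroid plexus difference between WT libraries, so it cannot address it, and nothing is concluded from it. Authors' lengths are the ratio of their signal to their signal per kb. Replicate libraries of a group differed by far more than sampling noise (chi-square per gene 11.4 to 20.8). Of 270 list entries, 267 matched a gene, 7 of them by reference ID.

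The 10 genes and the lists were chosen with earlier results of these data known. The genes named are the 10, from each related list the 3 called genes with the largest change in each direction, a set of catalytic subunits, relatives and partners, the 5 nearest patterns, and striatal markers with Slc17a7, Ttr and Gfap, except a few that are not reported here; Wdr92 was named for its overlap, and Slc5a7, Chat and Sox10 after their values were seen. Coordinates are GRCm38, for sequences only.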

Additional observations from a re-analysis of the deposited data

How the results depend on the processing

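All 10 members stayed lower and none was higher in all 12 alternatives, where the largest adjusted p was 0.0451 (Ppp3r1). No paired analysis was possible because the labels give no replicate number shared by the groups. Counts of calls moved more. Leaving out 1 library gave, over all genes, 776 to 2576 lower (2210 reported) and 280 to 2277 higher (1672); for PP1 3 to 10 lower and 0 to 3 higher; for PP2A 2 to 6 and 0 to 5; for calcineurin partners 2 to 7 and 1 to 3; for kinases 0 to 4 and 0 to 6; for STEP 3 to 6 and 0 to 3; for other serine/threonine phosphatases 2 to 5 and 1 to 5. With library totals only, which moved the median of all genes to 0.11, higher calls were 3237 over all genes, 6 for PP1, 8 for PP2A, 8 for kinases, 3 for STEP and 9 for the other phosphatases, and 4 calcineurin partners were lower. DESeq2 gave 7 higher kinases. RLE size factors, no filter, DESeq2, limma-voom and leaving out WT replicates 1 and 2 each gave 2 higher for STEP; the last also gave 2 higher for PP2A and 1 for calcineurin partners. The choroid plexus covariate gave 1177 lower and 577 higher over all genes, for PP1 4 and 0, for PP2A 3 and 1, for kinases 1 and 1, and higher calls of 1 for calcineurin partners, 0 for STEP and 2 for the other phosphatases. Fewer libraries or residual degrees of freedom are part of the fits that leave out libraries or add the covariate; otherwise the cause was not tested. Signs turned only for genes that had not passed: Ptprr (-0.016 to 0.12 over fits without 1 library, with -0.016 without WT replicate 1, -0.009 without WT replicate 2, -0.009 without R6/1 replicate 1, -0.13 without WT replicates 1 and 2, -0.12 with the covariate), Mapk3 (0.054, library totals) and Ppp2cb (-0.023 without WT replicate 1, up to 0.142 without WT replicate 2). With 2 R6/1 libraries the spread of that group rests on 1 difference.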
